A study of Mus musculus with 23 samples.

Results

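Saa3, Lcn2, Stat3, Socs3, Il1rn, Cd14 and Lbp were measured by 7 of the 18688 array features with a listed gene (22575 features in all), 1 feature for each gene. They were chosen by their symbols, with their levels and their correlations across mice in these same arrays already known, so those values are a description. The arrays held RNA of whole liver from 23 female C57BL/6 mice aged 12 to 13 weeks by the sample labels. The CB group (8 mice) had inhaled carbon black, the Printex particle, at 20 mg/m3, the DEP group (7 mice) had inhaled diesel exhaust particles, a standard reference material, at 20 mg/m3, and the air group (8 mice) had inhaled filtered air, all for 90 min on consecutive days. Livers were taken 90 min after exposure by the labels. A shorter interval and a lower age stand in the methods of the study. Each mouse had its own array, on which its liver RNA was labelled with Cy5 beside a commercial universal mouse reference RNA labelled with Cy3. The values below are log2 ratios of liver to reference, after loess normalization within each array. A value of 0 is a level equal to that in the reference RNA on this normalized scale, and the sign of small values can depend on the normalization. The mice came from 3 exposure rounds, taken from the dates in the labels, of which the first held 1 CB, 1 DEP and 2 air mice, the second 6 CB, 2 DEP and 4 air mice, and the last 1 CB, 4 DEP and 2 air mice.

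In the liver, cytokines of the interleukin 6 family bind receptors that signal through gp130 and the JAK kinases, which phosphorylate STAT3. STAT3 then switches on acute phase genes together with NF-kB and C/EBP factors, and it also switches on Socs3, whose protein blocks the receptor and so ends the signal. Saa3 and Lcn2 are secreted acute phase proteins that rise steeply in mouse liver during infection, Lbp and Cd14 present bacterial lipopolysaccharide to its receptor, and Il1rn blocks the receptor of interleukin 1.

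Arrays had a median Cy5 signal of 268 to 549 (CB), 312 to 511 (DEP) and 262 to 541.5 (air), and 20.5% to 40.0%, 19.2% to 37.4% and 13.8% to 41.9% of the features were marked absent in Cy5. Across the 23 arrays, the Pearson correlation of a gene's log2 ratio with the median Cy5 signal or the absent share lay between −0.23 and 0.23 for the 7 genes. Precision is limited by how many arrays there were. Because whole liver was measured, fewer cells of a type and less RNA per cell cannot be told apart. Hepatocyte markers were bright, with Alb at the scanner maximum on all 23 arrays.

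The stretches of promoter DNA shown here are those of the 2 secreted proteins that varied most between mice and of Socs3, the feedback inhibitor of the pathway. They are the 250 bases before the start of each gene in RefSeq (GRCm38.p6, minus strand, at chr7:46715677-46715926 for Saa3, chr2:32387740-32387989 for Lcn2 and chr11:117969367-117969616 for Socs3). Capitals mark matches to the C/EBP motif TTGCNNAA in Saa3 and Lcn2 and, in Socs3, to the STAT motif TTCNNNGAA and then the NF-kB motif, which is GGGA followed by any 4 bases and CC.
Saa3: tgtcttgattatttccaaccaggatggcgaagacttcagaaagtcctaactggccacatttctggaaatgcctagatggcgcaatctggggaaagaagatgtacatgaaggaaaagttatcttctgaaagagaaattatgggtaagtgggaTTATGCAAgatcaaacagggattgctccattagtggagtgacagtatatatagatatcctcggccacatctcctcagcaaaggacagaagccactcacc
Lcn2: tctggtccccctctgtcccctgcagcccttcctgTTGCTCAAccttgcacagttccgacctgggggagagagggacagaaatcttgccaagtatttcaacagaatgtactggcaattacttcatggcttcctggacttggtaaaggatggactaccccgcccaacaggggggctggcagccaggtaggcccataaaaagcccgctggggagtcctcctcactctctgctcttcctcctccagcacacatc
Socs3: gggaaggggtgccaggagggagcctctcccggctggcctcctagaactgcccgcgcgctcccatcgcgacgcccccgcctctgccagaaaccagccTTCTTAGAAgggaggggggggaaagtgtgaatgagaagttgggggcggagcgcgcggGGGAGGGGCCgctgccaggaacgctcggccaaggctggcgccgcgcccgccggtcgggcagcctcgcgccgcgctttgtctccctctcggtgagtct
The motifs were searched on both strands of windows that run from 250 bases before to 50 after the start. The C/EBP match lay at position −99 on the minus strand in Saa3 and at −216 in Lcn2. In Socs3 the STAT match lay at −154 and the NF-kB match at −97. Of all 32851 RefSeq windows, 10.8% held the C/EBP motif, 8.30% the STAT motif and 20.7% the NF-kB motif, and such a match is a description of the letters and no more. The window of Stat3 held none of the 3 motifs, and the first of 3 windows of Il1rn held 1 NF-kB match at −54.

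Saa3 varied more between mice than nearly every other gene on the array, and it did so in all groups. Saa3 encodes an inducible serum amyloid A, which in mice is made in liver and in macrophages and fat, and whether its probe also binds other serum amyloid A RNAs was not tested. In the CB group its log2 ratio was −1.02 at the lowest, −0.40 at the median and 2.52 at the highest. In the DEP group these were −0.91, −0.09 and 2.39, and in the air group −1.18, 0.70 and 3.12. Each group thus held mice with a level far above the reference RNA and mice with a level below it, and the 3 groups overlapped over almost their whole ranges. The highest mice were air mouse 53 at 3.12, CB mouse 835052 at 2.52, air mouse 443 at 2.51, DEP mouse 444 at 2.39 and CB mouse 445 at 2.08, and the lowest was air mouse 49 at −1.18. The range over the 23 mice was 19.7-fold. The SD within groups was 1.37 on the log2 scale against a median of 0.24 over all features, and 16 of the 18688 features had a larger one. The Cy5 signal of the liver channel ran over the 23 arrays from 755 to 34363.5, whereas the Cy3 signal of the reference on the same spots ran from 1247 to 4621.5. Of the exposure rounds, the first (4 mice) had the highest mean, 1.75 ± 1.69 (SD), with a mean of 0.17 ± 1.33 in the second (12 mice) and 0.11 ± 0.70 in the last (7 mice).

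Lcn2 encodes lipocalin 2, which binds bacterial siderophores and so withholds iron, and it had the next widest spread. Its log2 ratio was 0.72 at the lowest, 1.41 at the median and 2.52 at the highest in the CB group. In the DEP group these were 0.18, 1.32 and 2.67, and in the air group 0.55, 1.38 and 2.54. The level was above the reference in every mouse, and the medians of the 3 groups lay close together. The range over all mice was 5.61-fold, and the SD within groups was 0.83, with 184 of the 18688 features above it. The Cy5 signal was 392.5 to 3564 and the Cy3 signal 188 to 514. The highest mice were DEP mouse 444 at 2.67 and DEP mouse 51 at 2.63, and the lowest was DEP mouse 56 at 0.18, so the widest range fell in the DEP group. The mean of Lcn2 differed between the 5 array sets, which held 5, 3, 7, 5 and 3 mice. It was 0.92, 2.09, 1.01, 1.82 and 1.96 in sets 1 to 5, and that of Saa3 was 0.15, 1.65, −0.30, 0.56 and 1.15. The part of the array set in the spread was not tested, and the correlations below were not computed with it taken out.

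**Figure D1:**
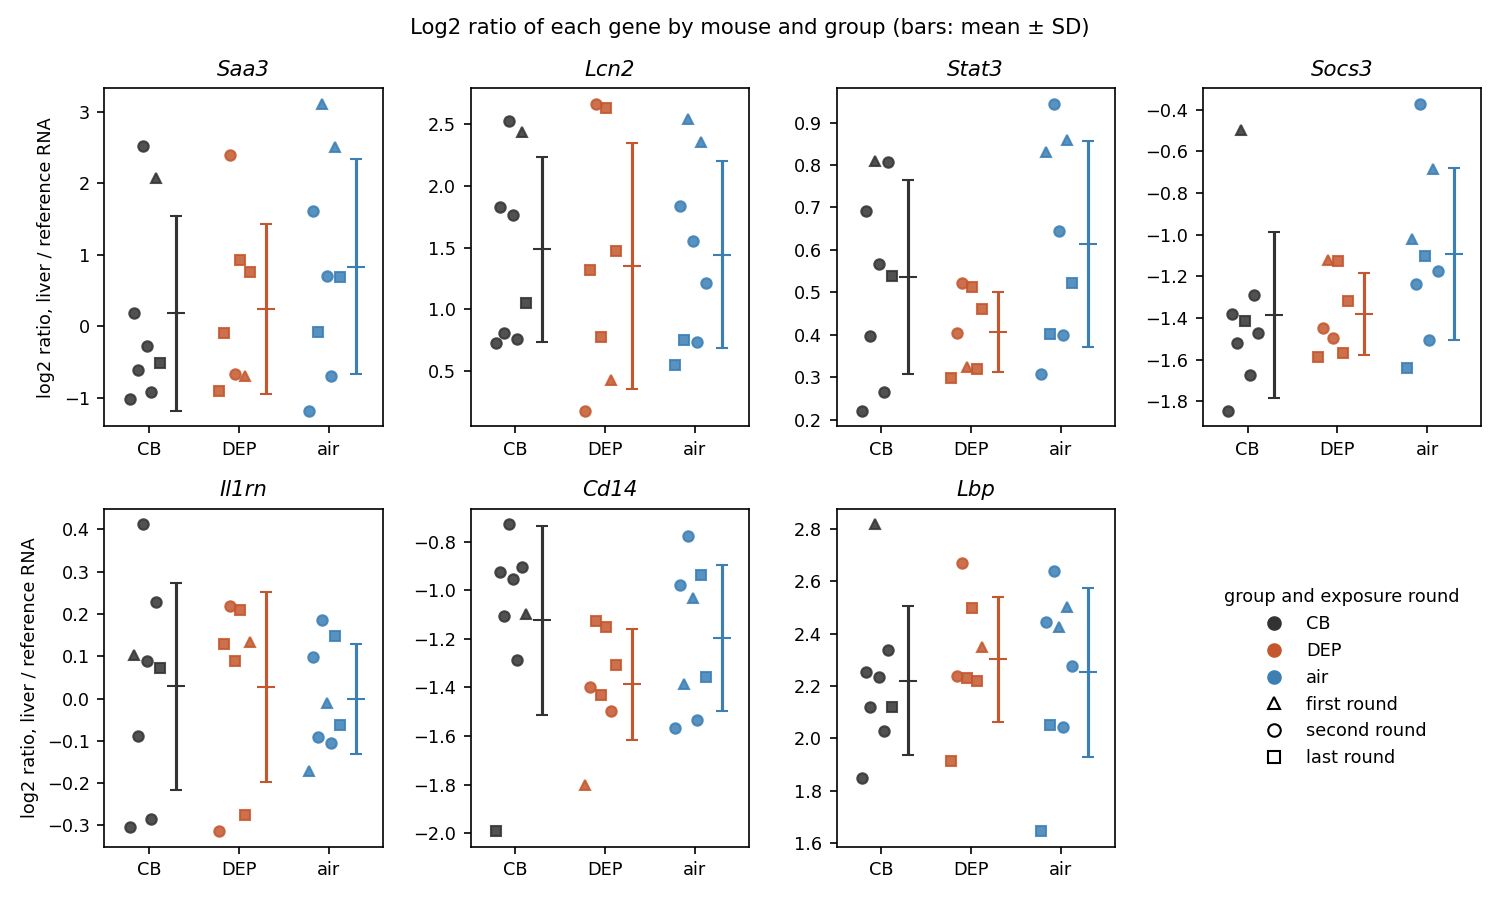
Log2 ratio of liver to reference RNA of each gene (vertical axis, a scale of its own in each panel) for the CB (n = 8 mice), DEP (n = 7) and air (n = 8) groups, with 1 point per mouse, the shape giving the exposure round and the bars the mean ± SD. Saa3 spanned −1.18 to 3.12 and Lcn2 0.18 to 2.67 with overlapping groups, while Stat3 stayed between 0.22 and 0.94.

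Stat3, the transcription factor itself, varied little. Its log2 ratio was 0.22, 0.55 and 0.81 (lowest, median, highest) in the CB group, 0.30, 0.40 and 0.52 in the DEP group and 0.31, 0.58 and 0.94 in the air group. All 23 livers were above the reference after loess, but the deposited log2 ratios ran from −0.30 (CB mouse 446) to 0.47 (air mouse 442). Whether Stat3 lay above or below the reference thus depended on the normalization. The groups overlapped, with the narrowest range in the DEP group. The range over all mice was 1.65-fold, and the SD within groups, 0.20, was below the median of all features. The Stat3 spot was dim in both channels on 2 arrays. On that of CB mouse 59 the Cy5 signal was 949 and the Cy3 signal 694, and on that of DEP mouse 835435 they were 1874 and 1273, against 4731 to 18643 in Cy5 and 3033 to 8444 in Cy3 on the other 21 arrays. Their log2 ratios, 0.22 and 0.32, were at the low end of their groups.

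**Figure D2:**
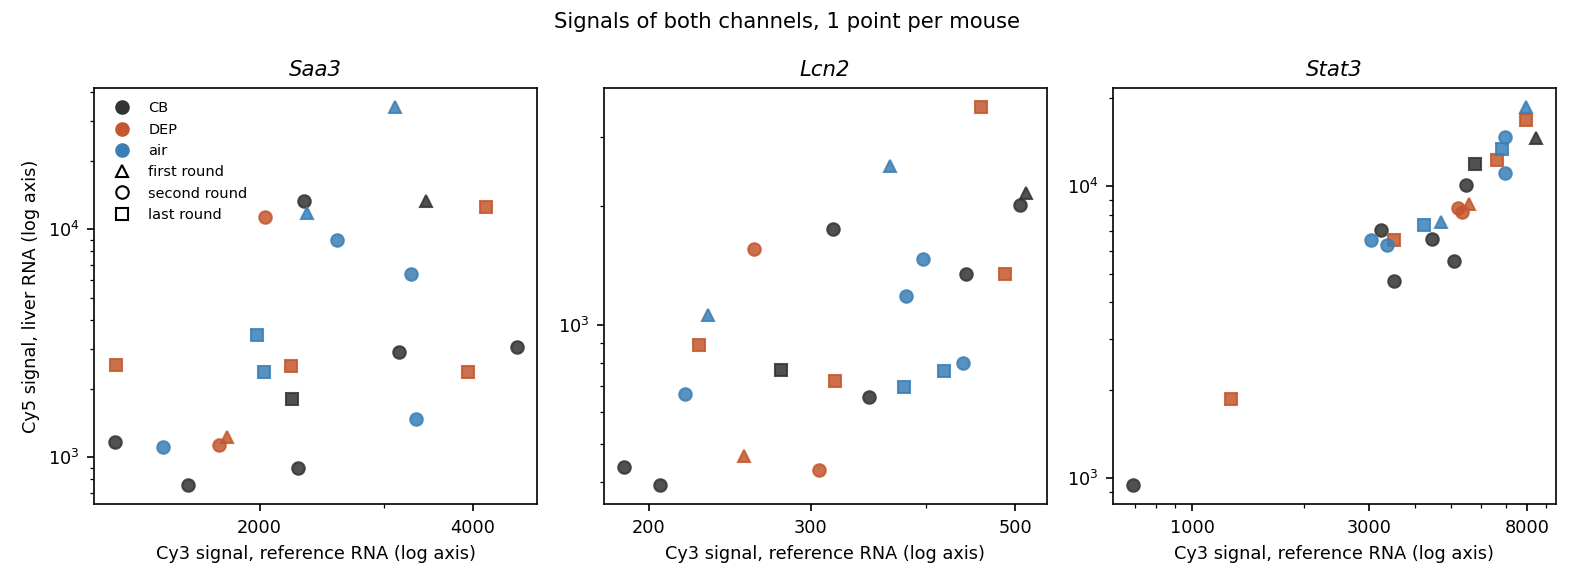
Cy5 signal of liver RNA (vertical, log axis) against the Cy3 signal of reference RNA (horizontal, log axis) for Saa3, Lcn2 and Stat3, with 1 point per mouse, coloured by group (CB, DEP, air) and shaped by exposure round. Saa3 spread from 755 to 34363.5 in Cy5 with Cy3 between 1247 and 4621.5, and the Stat3 spots of CB mouse 59 and DEP mouse 835435 stood low in both channels.

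Socs3, the feedback inhibitor that STAT3 induces, lay below the reference RNA in every liver. Its log2 ratio was −1.85, −1.44 and −0.50 (lowest, median, highest) in the CB group, −1.59, −1.45 and −1.12 in the DEP group and −1.64, −1.14 and −0.37 in the air group. The highest mice were air mouse 442 at −0.37, CB mouse 445 at −0.50 and air mouse 53 at −0.68, and the groups overlapped. The 4 mice of the first round averaged −0.83 ± 0.29 (SD), the 12 of the next −1.37 ± 0.36 and the 7 of the last −1.39 ± 0.22. The range over all mice was 2.78-fold.

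Lbp, the plasma protein that carries lipopolysaccharide to CD14, had the highest mean log2 ratio of the 7 genes, 2.26 over the 23 mice. Its log2 ratio was 1.85, 2.18 and 2.82 (lowest, median, highest) in the CB group, 1.91, 2.24 and 2.67 in the DEP group and 1.64, 2.35 and 2.64 in the air group. Cd14, the receptor on macrophages that takes lipopolysaccharide from LBP, was below the reference in every mouse. Its log2 ratio was −1.99, −1.03 and −0.73 in the CB group, −1.80, −1.40 and −1.13 in the DEP group and −1.57, −1.19 and −0.78 in the air group. Both had overlapping groups and moderate ranges, 2.26-fold for Lbp and 2.40-fold for Cd14.

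The level of Il1rn, the antagonist of the interleukin 1 receptor, could not be read from these arrays. Its spot was marked absent in both channels on 22 of 23 arrays, all but that of air mouse 49, with a Cy5 signal of 124 to 244. Its log2 ratio stayed between −0.31 and 0.41, which carries no level of liver RNA. The other 6 genes were absent on no array, and no spot of the 7 was saturated.

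Whether the particles changed these genes was tested in 1 limma model of all groups, with p-values adjusted by the Benjamini-Hochberg method over the 18688 features and a threshold of 0.05. None of the 7 genes passed in any of the 3 comparisons (CB against air, DEP against air, CB against DEP), where the share of all features called was 0% each time. At an unadjusted p under 0.05 there were also 0 of the 7 genes in each comparison, beside 5.94% of all features for CB, 4.82% for DEP and 3.44% for CB against DEP. The adjusted p-values of limma for the 7 genes ran from 0.873 to 0.993 after CB and stood at 0.997 after DEP and at 1.00 for CB against DEP.

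Saa3 averaged 0.18 ± 1.37 in the CB group (SD, n = 8), 0.25 ± 1.19 in the DEP group (n = 7) and 0.83 ± 1.51 in the air group (n = 8). Its log2 fold change was −0.65 after CB (standard error 0.61, 95% confidence interval −1.92 to 0.61, adjusted p = 0.917 from limma) and −0.59 after DEP (standard error 0.64, interval −1.90 to 0.72, adjusted p = 0.997). These intervals reach from 0.264-fold to 1.53-fold of air for CB and from 0.268-fold to 1.65-fold for DEP, and hold both lower and higher levels. By round, the CB difference was −0.13 in the second (6 CB and 4 air mice) and −0.82 in the last (1 CB and 2 air mice). The DEP difference was 0.75 in the second (2 DEP mice) and −0.13 in the last (4 DEP mice), against the same air mice. A block for the round gave −0.48 for CB and −0.41 for DEP. With median centring in place of loess they were −1.01 and −0.73. Without air mouse 53 they were −0.33 after CB and −0.26 after DEP.

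Lcn2 averaged 1.49 ± 0.75 in the CB group, 1.35 ± 0.99 in the DEP group and 1.44 ± 0.76 in the air group (SD, n = 8, 7 and 8). Its log2 fold change was 0.04 after CB (interval −0.73 to 0.82) and −0.09 after DEP (interval −0.90 to 0.71), each smaller than its standard error of 0.38 and 0.39. For Stat3, the log2 fold change was −0.08 after CB (interval −0.29 to 0.14) and −0.21 after DEP (interval −0.43 to 0.02, unadjusted p = 0.0689 and adjusted p = 0.997 from limma). The Stat3 difference after DEP had the smallest unadjusted p of the 7 genes in the 3 comparisons. By round it was −0.11 in the second (2 DEP mice) and −0.06 in the last (4 DEP mice).

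Socs3 averaged −1.39 ± 0.40 in the CB group, −1.38 ± 0.20 in the DEP group and −1.09 ± 0.41 in the air group (SD, n = 8, 7 and 8). The log2 fold change was −0.29 after both CB (interval −0.64 to 0.05, adjusted p = 0.873 from limma) and DEP (interval −0.65 to 0.07, adjusted p = 0.997). Both comparisons use the same air mice, and without air mouse 442 the values were −0.19 after each. By round, the CB difference was −0.46 in the second (6 CB mice) and −0.04 in the last (1 CB mouse). The DEP difference was −0.40 in the second (2 DEP mice) and −0.03 in the last (4 DEP mice). The log2 fold change of Lbp was −0.03 after CB (interval −0.32 to 0.25) and 0.05 after DEP (interval −0.25 to 0.34). That of Cd14 was 0.07 after CB (interval −0.24 to 0.38) and −0.19 after DEP (interval −0.51 to 0.13), and none of these differences passed.

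**Figure D3:**
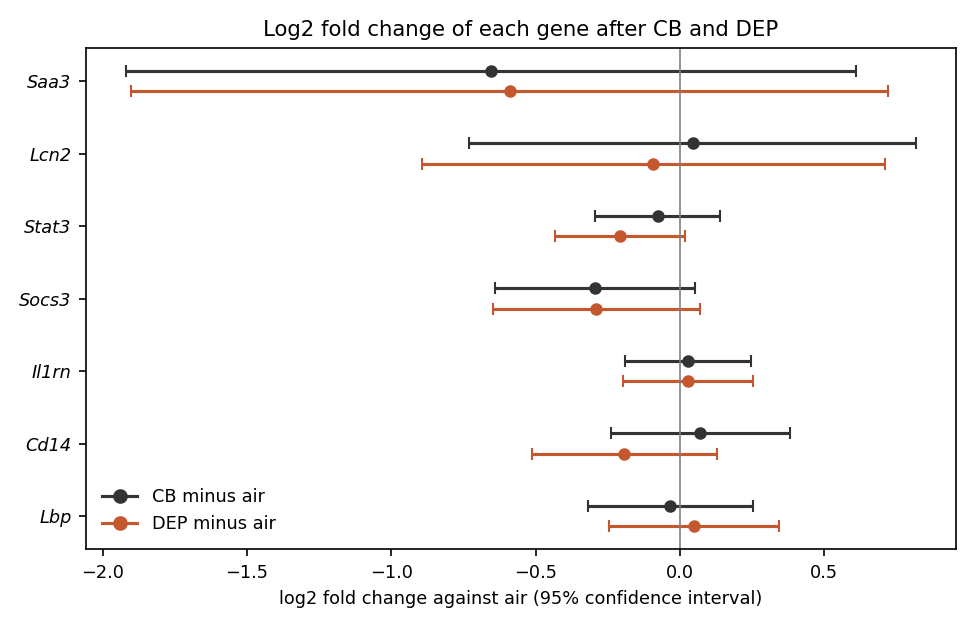
Log2 fold change of each gene (vertical axis, genes from top to bottom) after CB and after DEP against air, with 95% confidence intervals from limma. Every interval includes 0, and those of Saa3 are the widest (−1.92 to 0.61 after CB and −1.90 to 0.72 after DEP).

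Across the 23 mice, Saa3 went up and down with Lcn2 and with Stat3, and Stat3 with Socs3. Because the genes were chosen with these correlations known, they are given as a description with no p, for all 21 pairs of the 7 genes. Saa3 and Lcn2 had the highest Pearson r, 0.82 (Spearman's rho 0.77). Stat3 and Socs3 had 0.76 (rho 0.69), Saa3 and Stat3 0.75 (rho 0.68), and Saa3 and Socs3 0.60 (rho 0.51). Of the 21 pairs, 6 had an r of at least 0.5, and the other 2 were Socs3 with Lbp (0.56) and Lcn2 with Stat3 (0.53). The 6 pairs with Il1rn, whose spot was at background, lay between −0.07 and 0.14 over the 23 mice. In smaller sets of mice they reached 0.56 (Saa3, CB group), −0.68 (Stat3, DEP group) and −0.80 (Socs3, last round). An r of such a size in so few mice can thus arise with a spot at background. Lcn2 and Socs3 had an r of 0.33 (rho 0.19), with 0.65 in the CB group, −0.60 in the DEP group and 0.67 in the air group, and 0.10 without the first exposure round (chosen after seeing the data). Cd14 had its highest r with Stat3 (0.40) and −0.06 with Lbp. Without the 2 mice farthest from the median of the first gene of each pair, r was 0.77 for Saa3 and Lcn2, 0.68 for Saa3 and Stat3, 0.57 for Saa3 and Socs3, and 0.63 for Stat3 and Socs3.

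**Figure D4:**
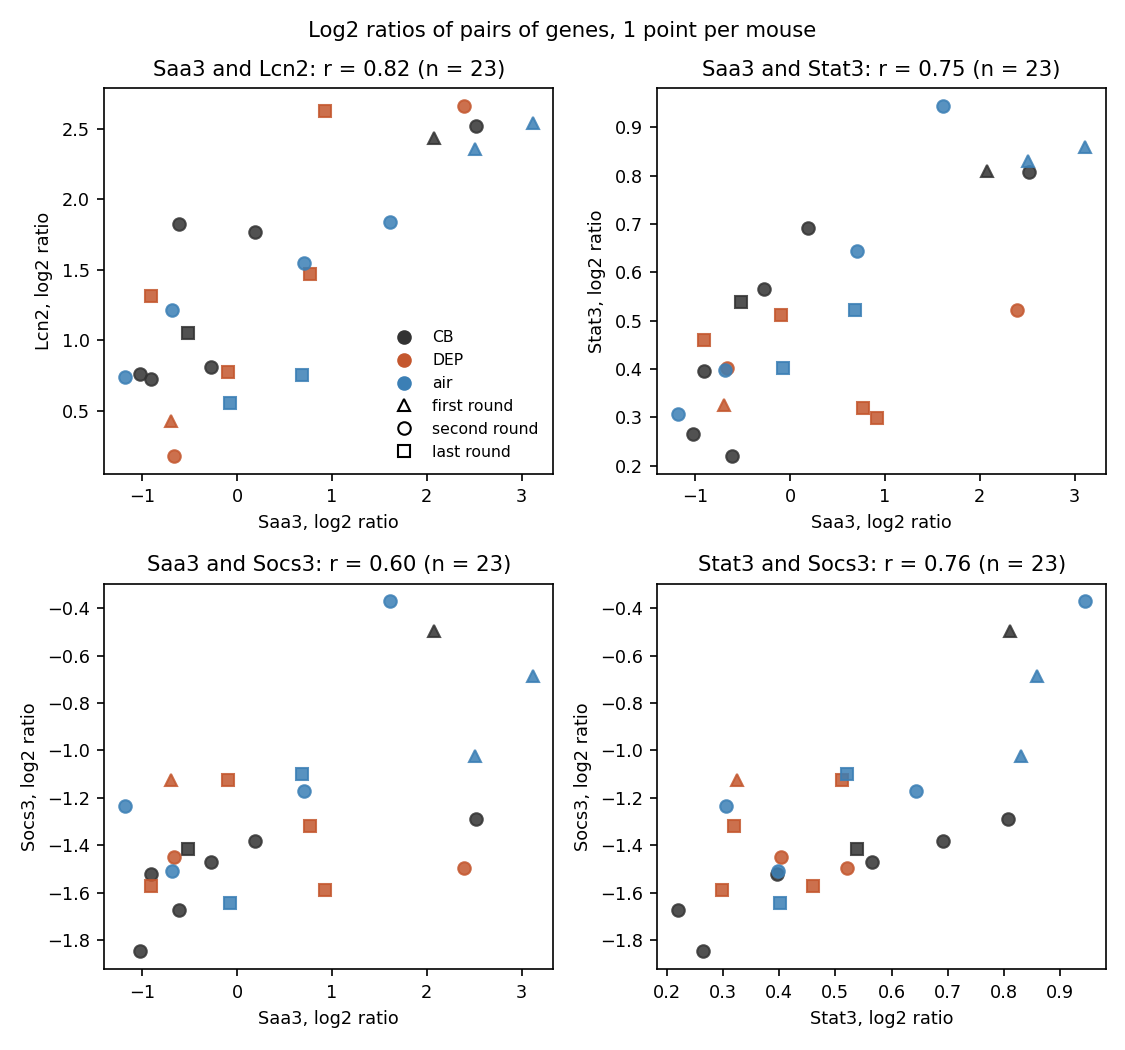
Log2 ratios of liver to reference RNA for 4 pairs of genes, with 1 point per mouse (n = 23), coloured by group (CB, DEP, air) and shaped by exposure round. The r over all mice was 0.82 for Saa3 and Lcn2, 0.75 for Saa3 and Stat3, 0.60 for Saa3 and Socs3 and 0.76 for Stat3 and Socs3, and the DEP mice lay in a narrow band of Stat3 (0.30 to 0.52).

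The pair of secreted proteins was correlated to a like degree in each group, with an r of Saa3 and Lcn2 of 0.88 in the CB group, 0.83 in the DEP group and 0.88 in the air group. The pairs Saa3 with Stat3, Stat3 with Socs3 and Saa3 with Socs3 had a lower r in the DEP group than in the CB or the air group, whereas Stat3 with Cd14 had 0.13 in the CB group, 0.55 in the DEP group and 0.55 in the air group. Saa3 and Stat3 had an r of 0.86 in the CB group, 0.16 in the DEP group and 0.91 in the air group. Stat3 and Socs3 had 0.78, 0.00 and 0.86 in the same groups, and Saa3 and Socs3 had 0.76, −0.28 and 0.70. These are values of 8, 7 and 8 mice, the difference between groups was not tested, and Stat3 spanned 1.17-fold in the DEP group, against 1.51-fold in the CB and 1.56-fold in the air group. Of the 21 pairs, 11 had an r of at least 0.5 in the CB group, 2 in the DEP group and 11 in the air group. Those of the CB group include Saa3 with Il1rn (0.56), whose spot was at background. These counts therefore cannot be read as a difference between the groups. The share of all features that reach 0.5 in groups this small is not given. Group and round also cannot be told apart here, as 4 of the 7 DEP mice came from the last round.

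By exposure round, the same pairs were correlated in the second round (12 mice), with an r of 0.85 for Saa3 and Lcn2, 0.76 for Saa3 and Stat3, 0.47 for Saa3 and Socs3 and 0.77 for Stat3 and Socs3. In the last round (7 mice, 4 of them DEP) they were 0.43, −0.58, 0.26 and 0.50, where Socs3 with Il1rn, at background, had −0.80. The last round had the smallest SD of Saa3, 0.70, and no mouse above 0.92. The first round held 4 mice, too few for a correlation. With the group and round means taken out over all 23 mice, r was 0.83 for Saa3 and Lcn2, 0.73 for Saa3 and Stat3, 0.43 for Saa3 and Socs3 and 0.71 for Stat3 and Socs3. Without the first round (19 mice, chosen after seeing the data) and with no means taken out, these were 0.75, 0.60, 0.44 and 0.73. Over all 23 mice they were 0.82, 0.75, 0.60 and 0.76, so Saa3 with Stat3 and Saa3 with Socs3 lost the most.

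The channels gave different pictures for different pairs. The Cy3 channel, which held the same reference RNA on all arrays, had an r of 0.74 for Saa3 and Lcn2, 0.72 for Saa3 and Socs3, and 0.85 for Saa3 and Cd14, where log2 ratios gave 0.27. It had 0.07 for Saa3 and Stat3 and −0.08 for Stat3 and Socs3, and without the 2 arrays with a dim Stat3 spot (left out after seeing the data) 0.46 (rho 0.70) and 0.19 (rho 0.44). In the Cy5 signal alone, quantile normalized between arrays, Saa3 and Lcn2 had an r of 0.86 and Saa3 and Socs3 had 0.53. Saa3 and Stat3 had 0.26 there and Stat3 and Socs3 0.04. Without the same 2 arrays, the Cy5 signal alone gave 0.36 and −0.03 for these 2 pairs and the log2 ratios 0.78 and 0.76. The high r of Stat3 with Saa3 and with Socs3 was thus seen in the ratio and not in the Cy5 signal alone. That of Saa3 and Lcn2 was seen in both, beside a correlation of the reference signal whose part in it was not tested.

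**Figure D5:**
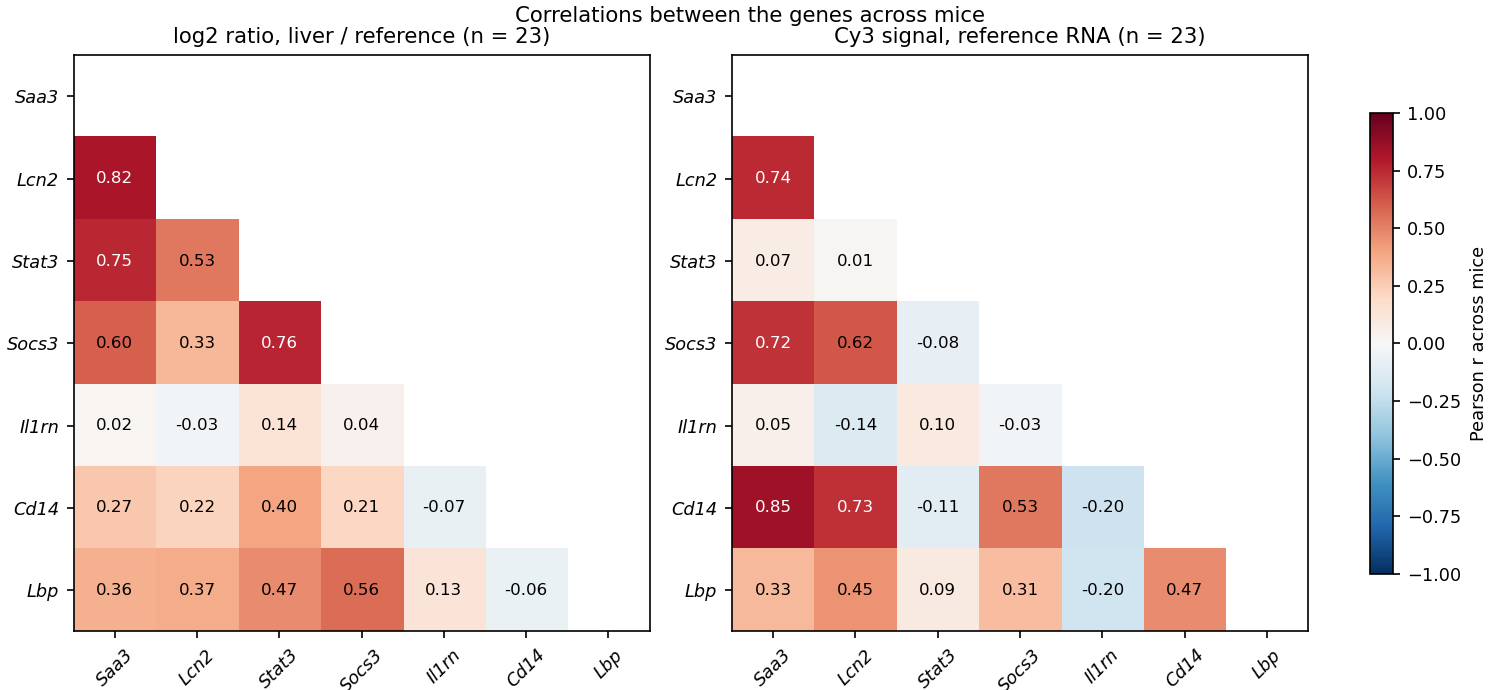
Pearson r across the 23 mice for each pair of genes, for log2 ratios of liver to reference (left) and for the Cy3 signal of the reference RNA over the array median (right), with the colour scale from −1 to 1. In the ratios Saa3 with Lcn2 (0.82), Stat3 with Socs3 (0.76) and Saa3 with Stat3 (0.75) stand out, and in Cy3 Saa3 with Cd14 (0.85), Lcn2 (0.74) and Socs3 (0.72).

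Among all genes, Saa3, Lcn2, Stat3 and Socs3 each had another of these 4 as the gene with the highest r. Not all pairs of them ranked high. The genes were chosen with their correlations in these same mice known, so these ranks and shares are a description and no test of the choice. Over 13215 other features that were present (absent in Cy5 on at most 11 arrays and saturated on none), with group means taken out, Lcn2 had the highest r with Saa3 (0.84) and Saa3 the highest with Lcn2. Stat3 had the second highest r with Saa3 (0.77), and Saa3 was the highest for Stat3. Stat3 was also the highest for Socs3 (0.76), and for Stat3 only Saa3 stood above Socs3. In the other pairs, 33 features stood above Socs3 for Saa3 and 73 above Saa3 for Socs3. For Lcn2, 233 stood above Stat3 and 1934 above Socs3, while 30 stood above Lcn2 for Stat3 and 761 for Socs3. For Saa3 the median r over these features was 0.02, with the central 95% between −0.39 and 0.42, and 0.855% of them reached 0.5. For Lcn2 this share was 3.98%, for Stat3 0.666% and for Socs3 1.25%.

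The next genes most like Saa3 were Cxcl1 (r = 0.77), a chemokine that draws neutrophils, Psme3 (0.77), an activator of the proteasome, and Hmox1 (0.73), the haem oxygenase that breaks down haem. They were followed by Tifa (0.65), an adaptor of TRAF6, Slc39a14 (0.64), an importer of zinc and iron, Resf1 (0.64), Cacna1c (0.64), a calcium channel subunit, and Chd2 (0.63), a chromatin remodeller. Cxcl1 had a log2 ratio between −3.18 and 0.67 over the 23 mice and Slc39a14 one between 0.06 and 1.46. In the Cy5 signal alone Cxcl1 had an r of 0.74 with Saa3, Hmox1 0.69 and Slc39a14 0.70, whereas Psme3 had 0.02. In the Cy3 channel the r with Saa3 was 0.77 for Cxcl1, 0.92 for Hmox1 and −0.01 for Slc39a14. In log2 ratios, the r of Slc39a14 with Saa3 was 0.64 in the second and 0.82 in the last round. The lowest r with Saa3 were those of Serpinb10 (−0.67), Rpap1 (−0.66), Vps37c (−0.62), Mkrn2 (−0.62) and Enpp5 (−0.62). From the Cy5 signal alone they were −0.23, −0.11, −0.05, −0.08 and −0.56 in the same order. After Saa3, the genes most like Lcn2 were Tyw1 (0.75), Cxcl1 (0.74), Dmac2 (0.73), Coq8b (0.72), Ttc17 (0.72), Lrrc47 (0.72), Ppp1r12a (0.72), Ythdf1 (0.72) and Snx10 (0.71). From the Cy5 signal alone their r with Lcn2 was 0.34, 0.81, 0.17, 0.23, 0.61, 0.53, 0.51, 0.46 and 0.69 in the same order. In the Cy3 channel it ran from −0.19 (Coq8b) to 0.86 (Snx10).

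None of the genes of the surrounding pathways passed the test after CB or DEP in either direction, again beside 0% of all features called. Of the ligands and receptors of the interleukin 6 family, 12 of 15 listed genes were measured, with a median log2 fold change of 0.00 after CB and 0.00 after DEP. Il6st, the gp130 chain, had log2 fold changes of 0.14 and −0.16 and an r of 0.28 with Saa3 and 0.50 with Lcn2, and Il6ra, the receptor that binds interleukin 6, had −0.14 and −0.11. Osmr, the receptor of oncostatin M, had 0.04 and 0.36. Of the JAK and STAT proteins and their inhibitors, 23 of 24 were measured, with a median of 0.05 after CB and 0.06 after DEP. In that list Tyk2, a JAK kinase, had 0.28 after CB (unadjusted p = 0.0172, adjusted p = 0.827 from limma) and 0.16 after DEP, and Socs2, an inhibitor of growth hormone signalling, had 0.05 and 0.44.

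All 13 listed transcription factors and kinases that STAT3 induces were measured, with medians of −0.09 after CB and −0.14 after DEP. Cebpd, the C/EBP factor of the acute phase, had log2 fold changes of −0.14 and −0.41 and an r of 0.52 with Stat3. Bcl3 and Junb were picked out after their values were seen. Bcl3, a partner of NF-kB, had an r of 0.58 with Stat3 and 0.55 with Socs3, and Junb, an AP-1 subunit, had 0.72 with Socs3. Of the secreted liver targets of STAT3 and C/EBP, 20 of 22 were measured, but 10 of them were saturated on at least 1 array, and the medians were −0.21 after CB and −0.17 after DEP. At an unadjusted p under 0.05, 6 of the 20 were lower after CB and 5 after DEP, beside 5.94% and 4.82% of all features in either direction. All of those lower after DEP were saturated on some arrays, and of those lower after CB all but Orm1 were. Hp and Fgb were saturated on all 23 arrays, Fgg on 22, Saa1, Saa2 and Hamp on 7 and Fga on 5. The ratios of Hp, Fgb and Fgg were thus limited by the scanner maximum on nearly every array, and those of Saa1, Saa2, Hamp and Fga on a minority of them. The part of saturation in these counts was not tested. Hamp, the iron hormone hepcidin, had −0.65 (unadjusted p = 6.84e-05, adjusted p = 0.298 from limma) and −0.46 (unadjusted p = 0.00348, adjusted p = 0.997), with 7 saturated arrays. Saa2, another serum amyloid A, picked out after its value was seen, had an r of −0.53 with Saa3 and was saturated on 7 arrays. Saa1, saturated on as many, had an r of 0.20 with Saa3. The 9 genes of this list that were present had a median r with Saa3 of 0.22 (lowest −0.002, highest 0.40).

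Of the genes that recognise lipopolysaccharide, 16 of 17 were measured, with medians of −0.01 after CB and 0.00 after DEP. Irak3, an inhibitor of Toll-like receptor signalling, had −0.28 (unadjusted p = 0.0164, adjusted p = 0.820 from limma) and −0.23, with its spot absent on 14 arrays. Tirap, an adaptor of TLR4 picked out after its values were seen, had an r of 0.50 with Saa3 and 0.62 with Socs3. In the interleukin 1 system 11 of 12 genes were measured. Il1b had log2 fold changes of 0.65 after CB (unadjusted p = 0.0153, adjusted p = 0.816 from limma) and 0.49 after DEP and an r of −0.16 with Saa3. Il1r1, the signalling receptor of interleukin 1, had −0.27 and −0.16, and its r was 0.59 with Saa3, 0.65 with Lcn2, 0.52 with Stat3 and 0.67 with Socs3. Of the NF-kB subunits and inhibitors, 12 of 14 were measured, with medians of 0.05 and 0.07, and of the receptors, partners and iron carriers of Lcn2, 9 of 10 were measured, with medians of −0.09 and 0.05.

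Saa3 and Lcn2 are also made by neutrophils and macrophages, so markers of these cells were read beside them. Of the 10 neutrophil markers all were measured and 4 were present, and of the others Camp was absent on 23 arrays, Ngp on 22, Mmp8 on 21 and Mpo on 12. The ratios to the reference of all 10, summed with the absent spots included, were 3.27 to 4.63 (CB), 3.41 to 4.21 (DEP) and 3.36 to 3.82 (air) on the log2 scale. This sum had an r of 0.41 with Saa3. Because absent spots carry no level of liver RNA, neither the sum nor its r can be read as a level of neutrophils. The median r of the 4 present markers with Saa3 was 0.07. With Lcn2 their median r was 0.06. S100a9, picked out after its values were seen, had 0.49 with Saa3 and 0.63 with Lcn2, while Elane had −0.36 and −0.33 and Mpo −0.42 and −0.49. Of the 8 Kupffer cell and macrophage markers 7 were measured and all of these were present, with summed ratios of 5.49 to 6.55 (CB), 5.61 to 6.79 (DEP) and 5.99 to 6.63 (air) on the log2 scale. Their median r was 0.13 with Saa3 and 0.40 with Lcn2. Vsig4 had 0.51 and Cd5l 0.49 with Lcn2, against 0.13 and 0.15 with Saa3. The part of these cells in the levels of Lcn2 was not tested.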

How the data were processed

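Liver RNA of 23 mice was hybridised to 1 two-colour array each, with liver in Cy5 and reference RNA in Cy3 on all arrays. The authors scanned the arrays, quantified the spots and deposited the intensity of each channel, linear and without background subtraction. They also deposited flags of absent spots, and log2 ratios that the authors had made by lowess (R 2.4.1). Both deposited copies of these log2 ratios, per array and for the series, held equal values.

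For the present values, limma 3.58.1 (R 4.3.3) normalized the deposited intensities by loess within each array, over the 18688 features with a listed gene, and 3887 features without one were left out. A spot at 65535, the scanner maximum, was taken as saturated. All groups entered 1 model (lmFit, eBayes), CB and DEP were each set against air and against each other, and p-values were adjusted by Benjamini-Hochberg. The test of the paper's methods, MAANOVA, was not run. The fit was checked on simulated data. Correlations were computed in Python 3.11.15 (scipy 1.17.1). The genes, the lists and the rule for named genes (up to 4 of a list by smallest p, and those most like Saa3 and Lcn2) were chosen with earlier results of these data known. The alternatives were the deposited ratios, median centring, the Cy5 signal alone, 50 added to both channels, a filter on absent features, round, array set or day as a block, single rounds, array weights and leaving out each mouse. Mice are separate animals.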

Additional observations from a re-analysis of the deposited data

Results flagged for a closer look

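In 63 sets of values (7 genes, 3 measures, 3 groups), 6 held a mouse far from the others of its group. Chance gives about 1 in 20 for a single set. The 3 measures share the same signals, so the sets are not independent and no excess can be read from the count. The Stat3 spot was dim on 2 arrays. Relative to the array median, its log2 Cy5 signal was 0.79 on the array of CB mouse 59, with 3.53 to 5.31 on the other CB arrays, and 2.40 on that of DEP mouse 835435, with 3.99 to 5.05 on the other DEP arrays. The log2 Cy3 signal of the same spot was 0.68 for CB mouse 59, with 3.12 to 4.50 on the other CB arrays. CB mouse 445 had a Socs3 log2 ratio of −0.50, with −1.85 to −1.29 in the other CB mice. The same mouse had a log2 Cy5 signal of Lbp of 4.55 over the array median, with 2.13 to 3.27 in the others. CB mouse 835436 had a Cd14 log2 ratio of −1.99, with −1.29 to −0.73 in the other CB mice.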

How the results depend on the processing

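Of 488 log2 fold changes of the 7 genes under the alternatives, 447 kept their direction and 41 turned it, and none passed the threshold (smallest adjusted p from limma 0.0722). Many of the 447 could not turn, so the count is no measure of robustness. Leaving out a mouse of 1 particle group leaves the fold change of the other particle as it was. The filter on absent features also left the fold changes of the genes it kept unchanged. Median centring gave the 0.0722 (Socs3 after CB) and moved some values far without turning them. With it, after CB, Socs3 was −0.67, Stat3 −0.38, Lbp −0.33 and Saa3 −1.01, against −0.29, −0.08, −0.03 and −0.65 with loess. Those that turned were near 0 in the main fit or rested on few mice, as the last round has 1 CB mouse. For Lcn2 after CB these were −0.028 with the deposited ratios, −0.13 with median centring, −0.070 with the array set as a block, −0.083 with array weights and −0.0042 without the 2 arrays with a dim Stat3 spot (added after seeing the data). For Lcn2 after DEP they were 0.012 with the round as a block, 0.15 with the array set as a block, 0.085 in the second round and 0.89 in the last. Saa3 after DEP was 0.75 in the second round. Stat3 after CB was 0.016 with the deposited ratios and 0.078 in the last round. Cd14 after CB was −0.24 with median centring and −0.85 in the last round. In the last round Lbp after CB was 0.27, from Cy5 alone it was 0.16, and after DEP −0.091 with median centring. From Cy5 alone Il1rn was −0.094 after CB and −0.023 after DEP, in the second round −0.013 and −0.070, and in the last −0.0047 after DEP. Leaving out 1 mouse gave −0.10 to 0.20 (Lcn2), −0.025 to 0.077 (Il1rn) and −0.12 to 0.022 (Lbp) after CB, and −0.31 to 0.10 (Lcn2), −0.0039 to 0.085 (Il1rn) and −0.038 to 0.11 (Lbp) after DEP.

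Features called after CB numbered 285 with median centring (15 of them higher), which shifted the median of all features by −0.11, 50 in the last round, 1 with array weights and 1 without the 2 arrays with a dim Stat3 spot. Without 1 mouse there were 0 to 1 (1 without CB mouse 59 or without air mouse 442). For CB against DEP there were 100 in the last round. The counts of the last round, for CB against air and for CB against DEP, rest on 1 CB mouse. No spread within the CB group entered them, so no conclusion is drawn from them. The cause of the other calls was not tested. The r of Saa3 and Lcn2 was 0.43 in the last round, 0.74 in Cy3 (0.74 there without the 2 arrays) and 0.75 without the first round, and without 1 mouse it was 0.80 to 0.86. No paired analysis was possible because the numbers of the mice are shared by no 2 groups.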
